A study of Mus musculus with 19 samples.

Results

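The libraries described here are 2 RNA-seq libraries of mouse extraembryonic ectoderm (ExE), the trophoblast tissue that lies over the epiblast of the early post-implantation embryo. They were chosen by a level of expression: of the 9 ExE libraries whose mothers lacked Eed in the oocyte, these 2 listed Esrrb below 10 RPKM (read numbers scaled to transcript length and library size). The low-Esrrb pair, named in the labels as matKO male 4 and matKO male 5, had 0.31 and 3.77 RPKM of Esrrb. The other 7 matKO libraries had 26.0 to 55.8 RPKM, and the 4 control libraries had 35.5 to 40.9 RPKM. Male 5 was thus the member just inside the threshold, and matKO male 1, at 26.0 RPKM, was the library just outside it. These values chose the pair and carry no test.

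All 13 ExE libraries came from conceptuses at embryonic day 6.5 (E6.5), within a series of 19 samples. The matKO conceptuses had mothers of the genotype Gdf9-Cre, Eed-fl/fl, in which Cre recombinase expressed under the oocyte promoter of Gdf9 deletes the floxed gene in the growing egg. Control (CTR) mothers were Eed-fl/fl without Cre. PWK males without an engineered allele sired every conceptus, and the mothers had a mixed B6/129 background, so every conceptus inherited an intact paternal Eed allele and carried strain differences between its parental genomes. The groups were 5 matKO males, 4 matKO females, 2 CTR males and 2 CTR females, and both low-Esrrb libraries were labelled male. The labels do not say whether libraries of a group came from separate litters, so spreads and p-values measure only the difference between these libraries.

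Eed is a core subunit of Polycomb repressive complex 2 (PRC2), which places the methyl mark H3K27me3 on histones, and the maternal mark is needed for a small class of imprinted genes in trophoblast. The ExE holds the trophoblast stem cell population. FGF from the epiblast acts through Fgfr2 and ERK on these cells, and Esrrb, Sox2, Eomes, Cdx2 and Elf5 are transcription factors of the stem state. ExE in turn sends Bmp4 to the epiblast. When stem cells leave the state they form the ectoplacental cone, marked by Ascl2 and later Tpbpa, and trophoblast giant cells, which need Hand1 and make placental prolactins.

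Deposited RPKM summed to between 741541 and 808652 per library, and no read depth is given with these values. Genes at 1 RPKM or more numbered 9571 and 9638 in the low-Esrrb pair, fewer than the 9721 to 9906 of the other matKO libraries and the 9786 to 9977 of controls. The maternal Eed allele gave 11.1% and 16.3% of allelic Eed RPKM in the low-Esrrb pair, 11.6% to 17.1% in the other matKO libraries and 43.9% to 47.7% in controls. Xist had 1.09 and 1.01 RPKM in the low-Esrrb pair, 0.52 to 0.77 RPKM in the other male libraries and 6.5 to 12.1 RPKM in the female ones. No label names a batch, but Ppia, a gene with many near-identical copies in the genome, split the libraries into 5 under 6 RPKM among the other matKO ones, 1 over 30 RPKM and 1 between. Male 4 had 44.7 RPKM of Ppia and male 5 had 3.57 RPKM, so the low-Esrrb pair stood on both sides of this split. Values within each side are given where they bear on a result.

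Across the transcriptome the low-Esrrb pair differed from the other matKO libraries in more genes downward than upward. Of 9875 genes that averaged 1 RPKM or more over the 9 matKO libraries, 153 were counted as higher (1.55% of those tested) and 346 as lower (3.50%). A gene was counted when both low-Esrrb libraries lay beyond all 7 others and the mean log2(RPKM + 1) differed by at least 1. Without the condition on size, 1422 genes (14.4%) lay above and 1368 (13.9%) below all others. The median difference of all tested genes was 0.02 on this log2 scale. Since Esrrb in the same libraries chose the pair, none of these counts has a test. The average used as a filter includes the pair, so some higher genes were tested only through their values there. The tissue was measured in bulk, where fewer cells of a type and less RNA per cell cannot be told apart.

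The low-Esrrb pair were not equal. Male 4 lay farther from the others than male 5 in 111 of the 153 higher genes and 285 of the 346 lower ones. They differed from each other by at least 1 log2 unit in 280 genes. The 21 pairs among the other matKO libraries differed in 62 to 349 genes, with a median of 126, and the 6 control pairs in 44 to 75. Male 4 differed that much from single other matKO libraries in 544 to 1097 genes, and male 5 in 404 to 810 genes. Pearson's r over tested genes was 0.981 between the low-Esrrb libraries, 0.949 to 0.974 between male 4 and the others, and 0.965 to 0.978 between male 5 and the others. Without male 5 the count of higher genes was 284. Within the libraries under 6 RPKM of Ppia, male 5 alone against 5 others gave 141 higher and 282 lower genes, of which 80 and 242 were among the 153 and 346. X-linked genes made up 6.54% of the higher and 9.25% of the lower genes, against 3.55% of those tested. With male libraries only, these shares were 7.07% and 8.99%.

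**Figure D1:**
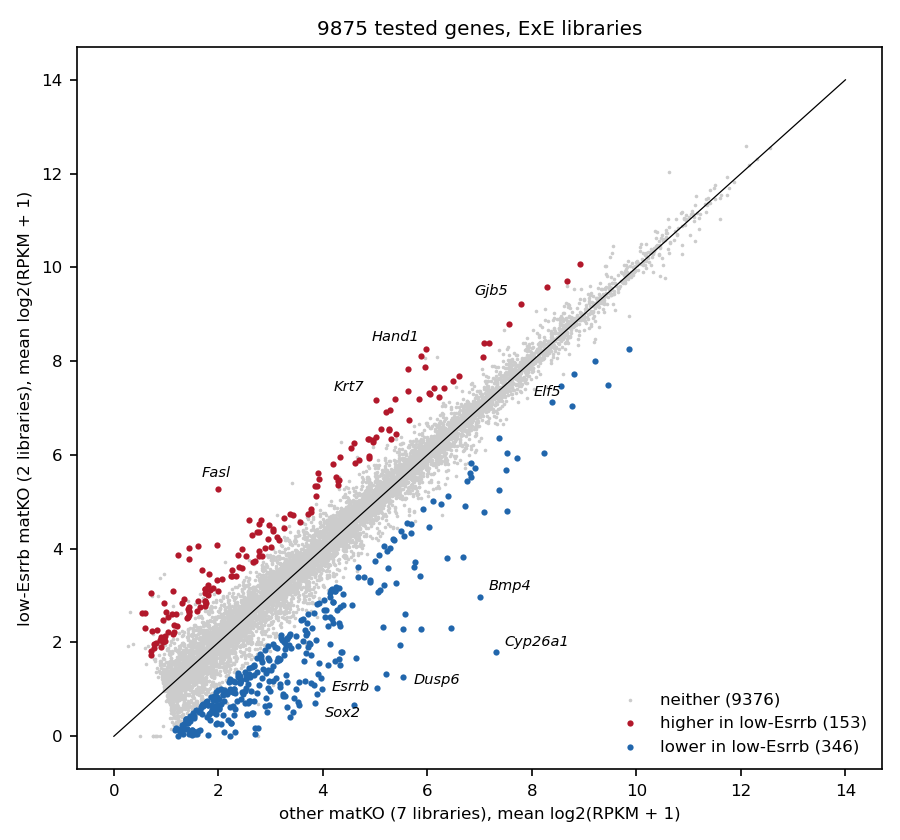
Mean log2(RPKM + 1) of each of 9875 tested genes in the 2 low-Esrrb matKO libraries (vertical axis) against the 7 other matKO libraries (horizontal axis). Red points are the 153 genes counted as higher and blue points the 346 counted as lower, Cyp26a1 and Bmp4 lie far below the diagonal, and Hand1, Krt7 and Fasl lie above it.

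Transcription factors and signals of the trophoblast stem state were split. Of 22 genes of this list, all tested, 8 were lower, Esrrb itself among them, 2 were higher and 12 were neither. Of all tested genes 3.50% were lower and 1.55% higher. The 8 lower genes also held Bmp4 and the ERK feedback genes Dusp6 and Spry4, which are counted again in the lists below. The list's median difference was -0.56, against 0.02 for all tested genes. Without male 4 the list had 1 higher gene, 7 lower ones and a median of -0.27. Sox2, which maintains trophoblast stem cells together with Esrrb, had 0.07 and 1.5 RPKM in the low-Esrrb pair, against 9.17, 11.9 and 23.1 RPKM as lowest, median and highest of the other matKO libraries. Both low-Esrrb values lay far under that range, and the controls had 10.7 to 13.9 RPKM. Bmp4, the ligand that ExE sends to the epiblast, had 2.95 and 14.7 RPKM in the pair, against 87.9, 133 and 196 RPKM in the others, a difference of -4.03 in mean log2(RPKM + 1). Sox21, another Sox-family factor, had 0.40 and 2.32 RPKM in the low-Esrrb libraries, against 5.15, 7.6 and 12.6 RPKM in the others. In all of these genes male 4 was the lower of the pair.

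The T-box and caudal factors of the stem state differed by less. Eomes had 21.8 and 52.3 RPKM in the low-Esrrb pair, against 56.0, 84.2 and 119 RPKM in the other matKO libraries, so male 5 lay close to the edge of their range. Cdx2, the caudal-type factor that specifies trophectoderm, had 1.25 and 1.76 RPKM in the pair, against 3.81, 5.05 and 5.76 RPKM in the others. The control range of Cdx2 was 3.20 to 6.56 RPKM. Both factors were counted as lower, with differences of -1.27 for Eomes and -1.22 for Cdx2.

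Other factors of the list stayed at the level of the other libraries or were higher. Elf5, an ETS factor used as a defining marker of trophoblast stem identity, had 185 and 204 RPKM in the low-Esrrb pair, against 178, 216 and 262 RPKM in the others, with overlapping groups. Fgfr2, the receptor for the epiblast FGF signal, had 20.8 and 21.7 RPKM in the pair, against 17, 20.5 and 21.8 RPKM in the others. Zfp42 had 104 and 150 RPKM in the low-Esrrb pair, inside or at the edge of the 104 to 181 RPKM of the others. Tfap2c, an AP-2 factor of trophoblast, had 198 and 129 RPKM in the pair, against 38.9, 62.0 and 109 RPKM in the others. Mycn had 83.5 and 76.9 RPKM in the low-Esrrb libraries, against 24.2, 27 and 32 RPKM in the others. Gata3 had 20.9 and 18 RPKM in the pair, above all the others at 11 to 12.6 RPKM, but its difference of 0.67 was under the size that was counted. The set was therefore split: Esrrb, Sox2 and Bmp4 were low while Elf5 and Fgfr2 were not, and Tfap2c and Mycn were high.

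**Figure D2:**
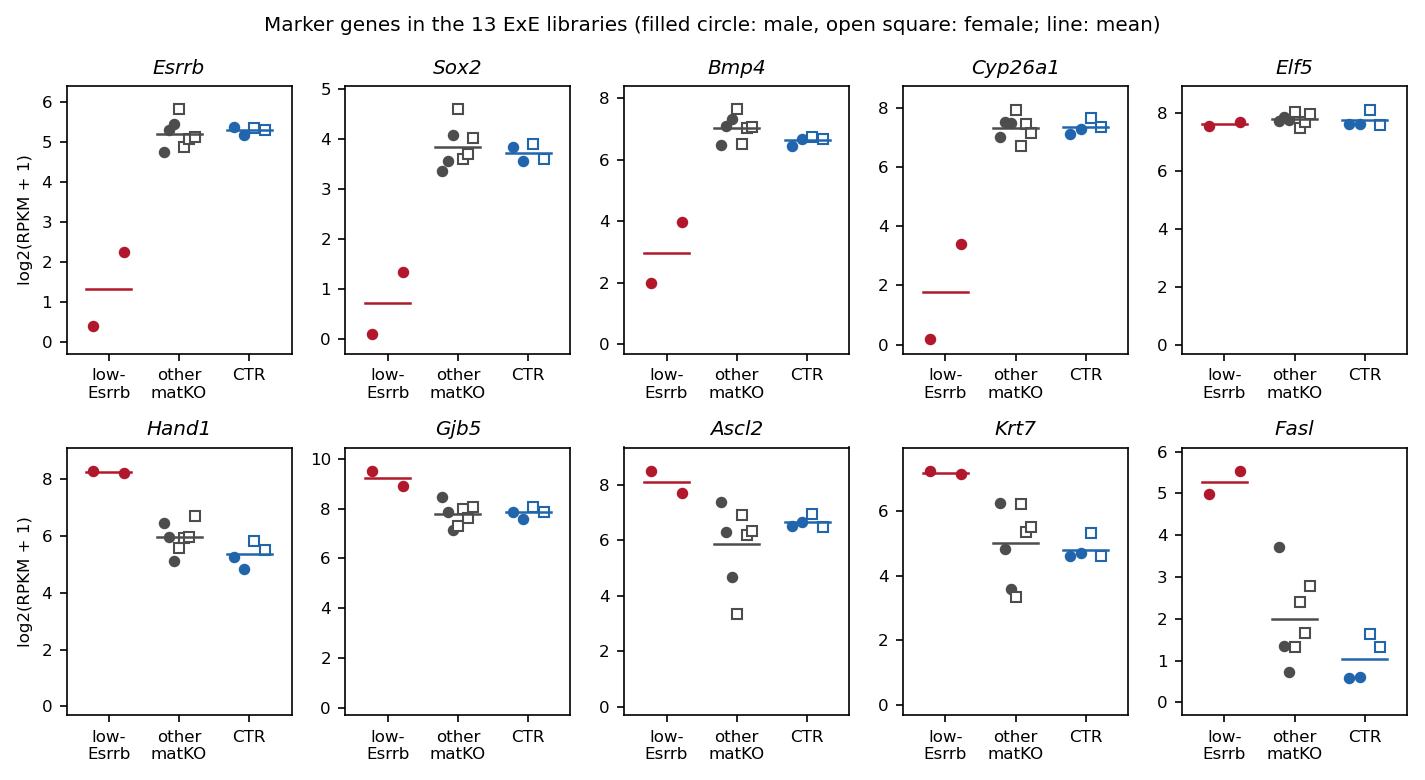
Levels of 10 genes as log2(RPKM + 1) in the 2 low-Esrrb matKO libraries, the 7 other matKO libraries and the 4 control libraries; filled circles are males, open squares females and lines group means. Esrrb, Sox2, Bmp4 and Cyp26a1 in the low-Esrrb pair sit under all other points, Elf5 overlaps, and Hand1, Gjb5, Ascl2, Krt7 and Fasl sit above.

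Genes that ERK signalling switches on, and that feed back on it, were lower in most tested cases. Of 16 genes of this list 14 were tested, 8 were lower and none was higher, where 3.50% and 1.55% of all tested genes were. Dusp6 and Spry4 were also counted in the stem list. The median difference was -1.44. Dusp6, the phosphatase that inactivates ERK, had 0.17 and 3.88 RPKM in the low-Esrrb pair, against 27.1, 53.1 and 61.3 RPKM in the other matKO libraries. Spred1, a membrane inhibitor of the pathway, had 0.10 and 1.3 RPKM in the pair, against 7.32, 13.1 and 15.5 RPKM in the others. The Sprouty genes, which encode inhibitors of receptor tyrosine kinase signalling, followed: Spry2 had 1.03 and 3.84 RPKM in the low-Esrrb libraries, against 12.4, 20.3 and 22.9 RPKM in the others. Spry4 had 0.00 and 0.29 RPKM in the pair, against 3.79, 5.84 and 7.90 RPKM in the others. Etv4 and Etv5, ETS factors downstream of FGF, had at most 0.71 RPKM in either low-Esrrb library and at least 2.66 RPKM for Etv4 and 3.57 RPKM for Etv5 in every other matKO library. The receptor Fgfr1, at 4.47 and 4.5 RPKM in the pair, lay below the 8.0 to 11.4 RPKM of the others by a difference of -0.90, and Fgfr2 overlapped. The low level thus reached 8 of 14 tested pathway genes but was not seen at Fgfr2.

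Signals of the BMP, Nodal and Wnt families were lower in 5 of 18 tested genes, none was higher, and the median difference was -0.77. Of all tested genes 3.50% were lower. Bmp4 was among the 5 and was also counted in the stem list. Without male 5 the count of lower genes was 9. Bmp8a, a BMP ligand of the ExE, had 0.10 and 0.30 RPKM in the low-Esrrb pair, against 2.40, 3.05 and 5.44 RPKM in the others. Msx2, a homeobox target of BMP signalling, had 0.60 and 1.35 RPKM in the pair, against 4.42, 7.6 and 9.30 RPKM in the others. Wnt6 had 5.48 and 14.8 RPKM in the pair, against 24.2, 29.99 and 33.9 RPKM in the others. The receptors Bmpr1a and Acvr2b were among the 13 genes in neither class. Id2, a target of BMP signalling and a marker of ExE, had 479 and 1571 RPKM in the low-Esrrb pair, against 887, 1660 and 1931 RPKM in the others, so that only male 4 lay below the range.

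An enzyme of retinoid breakdown headed the lower genes. Cyp26a1, the enzyme that degrades retinoic acid, had the largest difference of all tested genes: 0.14 and 9.5 RPKM in the low-Esrrb pair, against 103, 174 and 244 RPKM in the other matKO libraries, a difference of -5.53. Duoxa2, which matures the oxidase Duox2, had 0.93 and 11.6 RPKM in the low-Esrrb libraries, against 51.2, 87.4 and 154 RPKM in the others. Nr0b1, an X-linked orphan nuclear receptor, had 0.00 and 3.19 RPKM in the pair, against 8.80, 33.7 and 60.6 RPKM in the others. The controls had 78.1 to 99.2 RPKM of Nr0b1, above every matKO library. Ifitm1, Inpp1, Socs2 and Dcaf12l1 were further genes of this end, with differences of -3.91, -3.60, -3.25 and -3.01.

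Promoters of 3 of these genes are shown for the motifs they hold: Cyp26a1, the most strongly lower gene, holds the letters of a direct repeat that retinoic acid receptors can bind, and Inpp1 (lower) and Gjb5 (higher) each hold those of the extended nuclear receptor site that Esrrb can bind. The sequences are the 250 bases before the start site in RefSeq for GRCm38.p6, a later build than the mm9 build named for the expression files, and capitals mark the motif, which in Inpp1 lies on the opposite strand and reads TGACCTT. Cyp26a1 lies at chr19:37697558-37697807 on the plus strand, Inpp1 at chr1:52817689-52817938 and Gjb5 at chr4:127358165-127358414 on the minus strand.
Cyp26a1: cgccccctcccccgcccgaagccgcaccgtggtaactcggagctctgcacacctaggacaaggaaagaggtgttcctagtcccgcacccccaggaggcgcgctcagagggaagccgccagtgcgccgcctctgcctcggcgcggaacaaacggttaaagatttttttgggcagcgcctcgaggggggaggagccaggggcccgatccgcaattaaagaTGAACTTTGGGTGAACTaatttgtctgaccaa
Inpp1: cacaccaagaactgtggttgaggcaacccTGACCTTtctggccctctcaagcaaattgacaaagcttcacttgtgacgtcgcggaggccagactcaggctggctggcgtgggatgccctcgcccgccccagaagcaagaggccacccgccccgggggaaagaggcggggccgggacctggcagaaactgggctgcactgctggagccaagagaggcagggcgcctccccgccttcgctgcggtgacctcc
Gjb5: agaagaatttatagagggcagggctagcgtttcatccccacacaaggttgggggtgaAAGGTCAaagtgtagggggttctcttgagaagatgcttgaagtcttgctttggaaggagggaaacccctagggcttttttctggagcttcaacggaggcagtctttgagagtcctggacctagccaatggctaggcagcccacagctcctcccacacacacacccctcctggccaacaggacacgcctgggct
The Esrrb site AAGGTCA, read on both strands, was present in 4.08% of all 32851 promoter windows of this length. It was in 8 of the 242 lower genes with a window (3.31%), in 6 of the 111 higher genes with one (5.41%) and in 3.34% of tested genes in neither class. The direct repeat, TGAACT given again after 5 bases of any kind and read on both strands, was in 7 of the 32851 windows (0.0213%), Cyp26a1 among them. No instance of these letters in a window says nothing about binding elsewhere.

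What was higher in the low-Esrrb pair included genes of the ectoplacental cone. Of 17 genes of that list 10 were tested, 3 were higher, 2 lower and 5 neither, with a median difference of 1.16. Of all tested genes 1.55% were higher and 3.50% lower. Hand1, the basic helix-loop-helix factor that giant cells need, had 312 and 295 RPKM in the pair, against 34.2, 60.9 and 103 RPKM in the other matKO libraries. Both values were over the highest other library by a wide margin, and the controls had 27.9 to 55.3 RPKM. Ascl2, the maternally expressed factor of the ectoplacental cone, had 362 and 208 RPKM in the low-Esrrb libraries, against 9.06, 78.6 and 167 RPKM in the others. Gjb5, a connexin of the ectoplacental cone, had 730 and 488 RPKM in the pair, against 142, 235 and 351 RPKM in the others. Phlda2, an imprinted growth restrainer of the placenta, had 6029 and 2881 RPKM in the pair, against 472 to 3755 RPKM in the others, so male 5 lay inside their range. Plac1 also overlapped, at 445 and 167 RPKM in the pair against 0.90 to 1037 RPKM in the others. Rhox6 and Rhox9, X-linked homeobox genes of the same list, were lower.

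Markers of later trophoblast were at or near 0 throughout. Tpbpa, the marker of mature ectoplacental cone and spongiotrophoblast, was listed at 0 in both low-Esrrb libraries and at no more than 0.03 RPKM in any other. Prl3d1, the first prolactin of giant cells, was listed at 0 in both and at no more than 0.05 RPKM in any other. None of the 58 measured genes of the placental prolactin, cathepsin, Psg and Ceacam families reached 1 RPKM in any of the 13 libraries. Without male 1 the giant cell list had 3 lower genes. Of its 4 tested genes Hand1 was higher, Mmp9 was lower at 0.09 and 0.78 RPKM in the pair against 3.09 to 8.65 RPKM in the others, and 2 were neither. Of 6 tested syncytiotrophoblast genes only Cebpa was higher, at 4.59 and 2.30 RPKM in the pair against 0.26 to 2.01 RPKM in the others but not counted without male 4, and Gcm1, a defining factor of that lineage, stayed at or under 0.20 RPKM in all 13 libraries.

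Genes of epithelial keratins and junctions were higher in 4 of 16 tested cases and lower in 1, with a median difference of 0.61. Of all tested genes 1.55% were higher and 3.50% lower. Krt7, a keratin of trophoblast, had 149 and 139 RPKM in the low-Esrrb pair, against 9.17, 39.7 and 74.5 RPKM in the others. Krt19 had 531 and 371 RPKM in the pair, against 115, 182 and 338 RPKM in the others. Cldn4, a tight junction claudin, had 235 and 180 RPKM in the pair, against 81.5, 95.3 and 114 RPKM in the others. Cldn6 went the other way, with 145 and 133 RPKM in the low-Esrrb libraries and 267 to 396 RPKM in the others. Krt8 and Krt18, the simple-epithelium keratin pair, were at 524 and 310 RPKM and at 1337 and 1065 RPKM in the low-Esrrb libraries, of which Krt8 overlapped the others and Krt18 lay above their highest value of 1024 RPKM with a difference of 0.73. Without male 4 the count of higher genes in this list was 1 in place of 4, and without male 5 it was 6. In the ectoplacental cone list the corresponding counts were 3 without male 4 and 6 without male 5.

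The largest difference upward outside the lists was at Fasl, which encodes the death receptor ligand Fas ligand. Fasl had 30.6 and 45.6 RPKM in the low-Esrrb pair, against 0.66, 2.17 and 12.1 RPKM in the other matKO libraries and 0.49 to 2.13 RPKM in controls. The highest other library, at 12.1 RPKM, was male 1, the library just outside the Esrrb threshold. Cited2, a transcriptional regulator that binds CBP and p300 and that placental development needs, had 272 and 192 RPKM in the pair, against 30.5, 47.8 and 76.1 RPKM in the others. Dppa5a, a gene of pluripotent cells, had 188 and 288 RPKM in the pair, against 45.4, 53 and 99.7 RPKM in the others. Fam176a, Hs3st1, S100a9, Rab3il1 and Irx1, at 4.08 to 17.9 RPKM in the pair, had differences between 2.08 and 2.62. S100a9 and Irx1 averaged 0.69 and 0.51 RPKM in the other matKO libraries, so both were tested only through the pair. Dmkn, at 37.7 RPKM in male 4 and 6.14 RPKM in male 5, was unequal in the pair, and male 5 exceeded the highest other library, at 5.47 RPKM, by little.

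Genes of cell division, energy metabolism and general upkeep did not separate the groups by the size counted. None of 19 tested cell division genes was higher or lower, and their median difference was -0.03. Mki67, which marks cycling cells, had 24.6 and 16.7 RPKM in the low-Esrrb pair, against 16.3 to 21.1 RPKM in the others. None of 18 glycolysis and hypoxia genes and none of 10 housekeeping genes was counted, although the glycolysis list summed to 7100 and 6909 RPKM in the pair, above the 5410 to 6704 RPKM of the others. Of 79 ribosomal protein genes only Rpl10l was counted, as higher. Of 16 endocycle and cell cycle inhibitor genes 1 was lower, Cdkn2a, and of 13 p53 target genes 2 were lower, Pmaip1 and Perp. Of all tested genes 3.50% were lower. Of 10 tested PRC2 subunits none was counted, and Eed itself had 49.0 and 92.7 RPKM in the pair, against 82.7 to 118 RPKM in the other matKO libraries, with only male 4 outside. Summed, the PRC2 subunits gave 1260 and 1538 RPKM in the pair, against 883 to 1176 RPKM in the others. Of 9 DNA methylation genes Zfp57, which protects imprints, was lower, at 2.03 and 2.37 RPKM in the pair against 5.25 to 10.6 RPKM in the others.

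**Figure D3:**
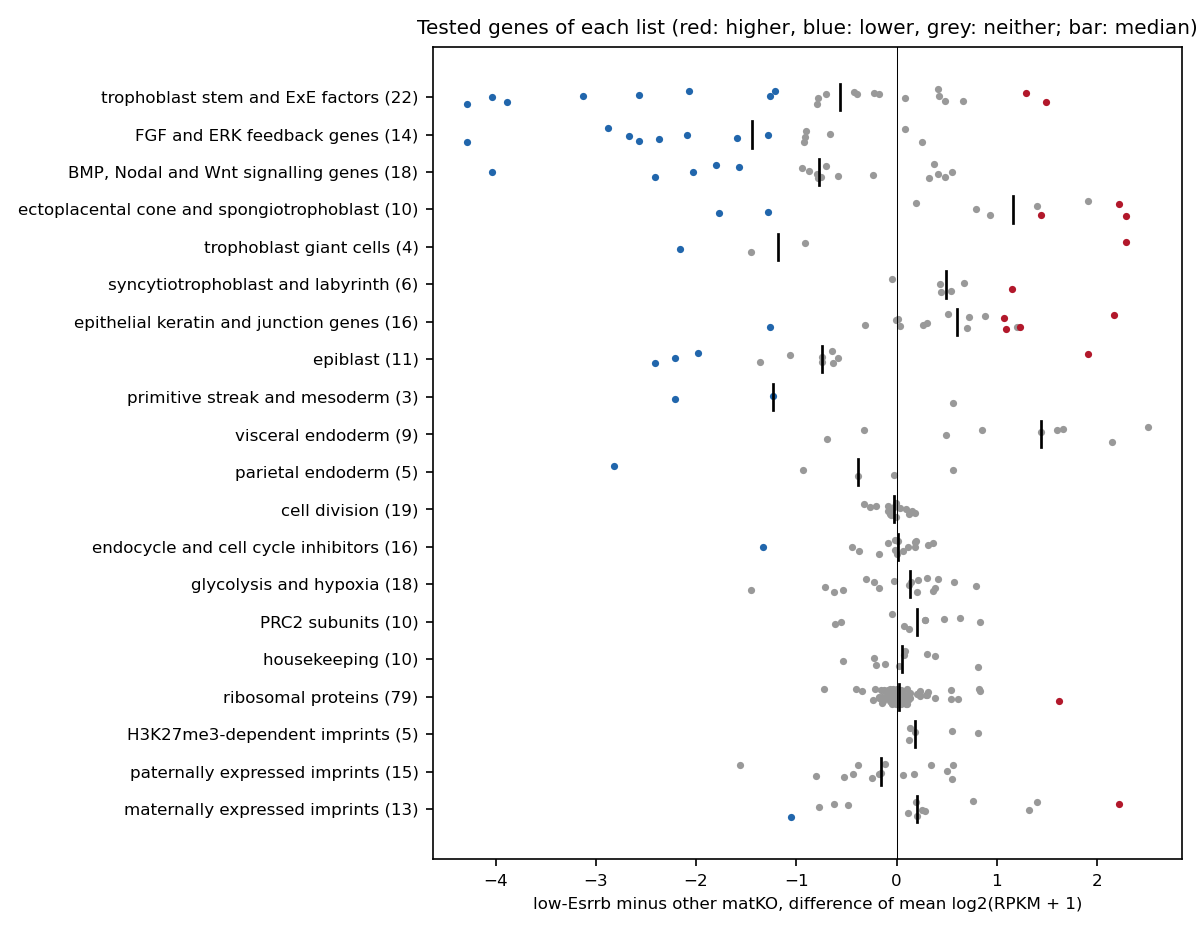
Difference of mean log2(RPKM + 1), low-Esrrb minus other matKO, of each tested gene of 20 lists, with the number tested in brackets; red, blue and grey points are genes counted as higher, lower and neither, and bars are medians. The medians are -0.56, -1.44 and -0.77 for the stem, ERK feedback and BMP, Nodal and Wnt lists, 1.16 for the ectoplacental cone and -0.03 for cell division.

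Markers of neighbouring tissues differed between the low-Esrrb libraries. The 19 visceral endoderm genes summed to 1.70 RPKM in male 4 and 273 RPKM in male 5, against 5.31 to 42.5 RPKM in the other matKO libraries, with female 1 the highest, and 9.08 to 15 RPKM in controls. Male 5 had 121 RPKM of Spink3, 62.9 RPKM of Apom, 14.1 RPKM of Ttr and 13.6 RPKM of Apoa4, and male 4 had 0 RPKM of each. Afp, a defining marker, was at 1.80 RPKM in male 5 and 0.17 RPKM in male 4, and Cer1 was at 0 in all 13 libraries. None of the 9 tested genes of this list was counted. Without male 4 the list had 7 higher genes, and without male 5 it had 6 tested genes, of which 3 were lower. Ttr and Apoa4 were among the genes that reached the mean of 1 RPKM only through male 5. The count of higher genes with male 5 alone thus follows partly from the filter. In male 4 each of the 19 visceral endoderm genes was under 1 RPKM.

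Epiblast genes summed to 614 and 808 RPKM in the low-Esrrb pair, against 742 to 1117 RPKM in the other matKO libraries. Of 11 tested, 3 were lower and 1, Dppa5a, was higher, where 3.50% and 1.55% of all tested genes were. Without male 5 there were 7 lower genes in this list, and without male 1 there were 5. Fgf8, a signal of the epiblast and primitive streak, was listed at 0 in both low-Esrrb libraries and at 0.33 to 7.98 RPKM in the others. Pou5f1, the defining factor of the epiblast, had 0.00 and 0.88 RPKM in the pair and 0.17 to 5.39 RPKM in the others, with overlap. The streak gene T had 0.03 and 0.12 RPKM in the pair, against 2.14 to 6.01 RPKM in the others. Of the 14 genes of maternal decidua 12 stayed under 1 RPKM in all 13 libraries, and the list summed to 0.59 and 1.31 RPKM in the pair, under the 1.69 to 3.88 RPKM of the others. The 14 blood, immune and endothelial genes summed to 26.5 and 40.5 RPKM in the pair, against 5.91 to 15.6 RPKM in the others, of which Cd52 was 17.8 and 30.8 RPKM in the pair and 2.81 to 8.95 RPKM in the others. 7 of these 14 genes were listed at 0 in all libraries. Of 5 tested parietal endoderm genes Pth1r was lower, at 2.03 and 7.44 RPKM in the pair against 23.4 to 47.2 RPKM in the others. The part of these other cells in the differences was not tested.

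Against the controls, of the 153 higher genes 148 lay above all 4 controls in both low-Esrrb libraries, and of the 346 lower genes 341 lay below all 4, where 22.9% and 19.4% of all tested genes did. These genes had been chosen for extreme values in the same 2 libraries, so nothing is read from these counts. By the same rule of size and no overlap, the low-Esrrb pair differed from the controls in 213 genes upward (2.16%) and 461 downward (4.67%), while the other matKO libraries differed from them in 9 (0.0911%) and 10 (0.101%). These groups are of unequal number, 2 and 7 libraries, which makes overlap likelier for the larger. The same controls enter both comparisons, and the low-Esrrb libraries enter the comparison with other matKO libraries too.

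Among the other matKO libraries the chosen genes varied as well. The mean log2(RPKM + 1) of the 153 higher genes was 4.64 in male 4 and 4.42 in male 5, then 3.54 in male 1, and 2.71 to 3.39 in the remaining matKO libraries, of which male 3 and female 1 were lowest at 2.71 and 2.77. The mean of the 346 lower genes was 1.52 in male 4 and 2.01 in male 5, then 3.03 in male 1, and 3.29 to 3.60 in the remaining ones. Controls lay between 3.0 and 3.21 for the higher genes and between 3.42 and 3.46 for the lower genes. Male 1, whose Esrrb was nearest the threshold, was therefore nearest to the low-Esrrb pair also by these genes, and this order partly follows from how the genes were chosen.

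The 2 sides of the Ppia split gave different pictures of the gene lists. Among libraries under 6 RPKM of Ppia, male 5 had 295 RPKM of Hand1 against 60.6 to 103 RPKM in 5 other matKO libraries, 14.7 RPKM of Bmp4 against 87.9 to 134 RPKM, and 139 RPKM of Krt7 against 27.5 to 74.5 RPKM. Gaps there were narrower for Gjb5, at 488 RPKM against 198 to 351 RPKM, and for Ascl2, at 208 RPKM against 71.7 to 167 RPKM. Among those over 30 RPKM, male 4 had 312 RPKM of Hand1 against 34.2 RPKM in male 3, and 2.95 RPKM of Bmp4 against 159 RPKM. On the side under 6 RPKM the ectoplacental cone list had 2 higher and 2 lower genes with a median of 0.21, and the keratin and junction list had 1 higher gene with a median of 0.20. There the stem factors had 1 higher and 7 lower genes with a median of -0.22, and the ERK feedback list had 8 lower genes with a median of -1.28. The visceral endoderm list had 7 higher genes on that side, among them Ttr and Apoa4. Both were among the genes of this list tested only through male 5. On the side over 30 RPKM, with 1 library in each group, the ectoplacental cone list had 8 higher genes and the keratin and junction list also had 8. The part of the Ppia split and of the difference between male 4 and male 5 in these counts cannot be told apart.

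The balance of parental alleles is a readout that the choice of libraries did not use. Maternal over paternal allelic RPKM, with 1 added to each, was compared as a log2 ratio by limma, with sex as a term, in 8152 autosomal genes. Of these 4 passed an adjusted p of 0.05 (0.0491%), and 957 had an unadjusted p under 0.05. Summed over autosomes, maternal alleles gave 47.2% and 47.7% of allelic RPKM in the low-Esrrb pair, 47.5% to 48.1% in the other matKO libraries and 47.3% to 47.8% in controls.

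For Wdfy1, which encodes an endosomal FYVE-domain protein, the maternal share was 56.2% and 52.2% in the low-Esrrb pair, against 10.6% to 18.7% in the other matKO libraries and 49.9% to 61.2% in controls. The low-Esrrb pair thus resembled the controls in value, and the other matKO libraries stood apart. The maternal-to-paternal log2 ratio of Wdfy1 was higher by 2.24 ± 0.21 (SE) in the pair, with an adjusted p of 0.0226 by limma, a value shared by all 4 genes. Total Wdfy1 was 14.3 and 16.5 RPKM in the pair, 5.82 to 8.79 RPKM in the others and 14.2 to 16.6 RPKM in controls. St3gal5, which makes the ganglioside GM3, had maternal shares of 23.8% and 24.1% in the pair, against 76.6% to 93.0% in the others and 62.3% to 76.4% in controls. Its total was only 0.74 and 0.98 RPKM in the pair, against 2.58 to 4.56 RPKM in the others, and its mean maternal allelic RPKM was 0.24 in the pair and 4.40 in the others, so the share in the pair rests on low values. Tmem181a had 65.2% and 59.5% in the pair, against 15.9% to 27.4% in the others and 18.7% to 27.3% in controls, and its total lay outside as well, at 2.00 and 2.11 RPKM in the pair against 14.7 to 24.6 RPKM in the others. Tmem181a shares reads with the near-identical Tmem181b-ps, so its values are uncertain. Nfkbid, an inhibitor of NF-kappaB, had 11.8% and 14.2% in the pair, against 33.4% to 43.0% in the others and 11.3% to 41.1% in controls.

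These 4 calls were not stable. None was left when only males were compared, without male 1, without male 4, without female 4, or with the Ppia level as a term, where Wdfy1 had an adjusted p of 0.0924 by limma. There were 7 calls without male 2 and 2 without female 2. Without male 5 there were 44, but male 4 then stood alone on its side, its spread assumed to be that of the other libraries, and the same assumption for male 5 holds without male 4. Mothers were a mix of B6 and 129, the maternal haplotype of each library at these genes is not given in the sources used here, and its part in the ratios was not tested.

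Imprinted genes were then followed by their allelic shares. The 5 genes whose imprint depends on maternal H3K27me3 (Smoc1, Slc38a4, Sfmbt2, Phf17 and Gab1) were on average read from the maternal allele at 49.2% and 46.6% in the low-Esrrb pair, against 39.3% to 52.3% in the other matKO libraries and 9.08% to 16.5% in controls. By this mean share the pair therefore did not stand apart from other matKO libraries. Sfmbt2, which encodes a Polycomb-related protein needed for trophoblast, had maternal shares of 52.3% and 54.6% in the pair, against 1.62% in male 2, 13.8% in male 1 and 40.4% to 52.6% in the remaining matKO libraries. In total RPKM none of these 5 genes was counted as higher or lower. Their summed RPKM was 421 and 389 in the pair, above the 293 to 370 of the other matKO libraries. Controls had sums of 182 to 215 RPKM.

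Some paternally expressed genes of the DNA methylation class were read more from the maternal allele in the low-Esrrb pair and in 1 other library. Over 11 genes with at least 20 allelic reads on average, the mean maternal share was 22.4% and 22.5% in the low-Esrrb pair, against 17.5% in female 1, 6.18% to 8.71% in the remaining matKO libraries and 5.41% to 8.93% in controls. Peg10, a retrotransposon-derived gene that the placenta needs, had maternal shares of 17.5% and 11.2% in the pair and 15.9% in female 1, against 0% in every remaining library. Sgce, its neighbour, had 13.8% and 28.5% in the pair and 18.2% in female 1, against 0.419% to 2.16% in the remaining matKO libraries. Mest had 60.4% and 31.5% in the pair and 23.0% in female 1, against at most 8.49% in the remaining matKO libraries. In all, 4 of the 11 genes (Snrpn, Mest, Igf2 and Zrsr1) had a higher share in both low-Esrrb libraries than in all 7 others, and 3 more (Peg10, Sgce and Kcnq1ot1) than in all but female 1. Female 1 was set aside here after its values were seen. How many of all autosomal genes lay above the others in this way was not counted, so nothing is read from these counts. The remaining 4 did not separate that way: Peg3 had 14.8% in male 4, inside the range of the others, Airn had 0% in male 4, Snurf had 33.1% in male 4 but near 0 in male 5, and Inpp5f had 37.4% and 38.9% in the pair, under the 39.1% to 54.4% of the others. Kcnq1ot1 and Airn are antisense to other genes and the libraries do not mark strand, so their shares are uncertain, as are those of the overlapping Snurf and Snrpn. Female 1 had the highest Esrrb of all 13 libraries, at 55.8 RPKM. It also had the highest visceral endoderm sum among the other matKO libraries, whereas that sum was the lowest of all in male 4. Whether these shares go with Esrrb or with visceral endoderm cells was not tested.

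The opposite difference was seen at H19, the maternally expressed RNA next to Igf2. Its maternal share was 73.0% and 68.4% in the low-Esrrb pair and 71.6% in female 1, against 94.1% to 100% in the remaining matKO libraries and 97.5% to 99.9% in controls. Ascl2, whose total level was higher in the pair, kept maternal shares of 99.5% and 99.7% in the pair, against 97.9% to 100% in the others, and Phlda2 and Cdkn1c likewise stayed at 97.4% or more in the pair. Of 29 imprinted genes in the allelic test none passed an adjusted p of 0.05 by limma, 9 had an unadjusted p under 0.05, and the lowest adjusted p was 0.159, at Igf2.

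**Figure D4:**
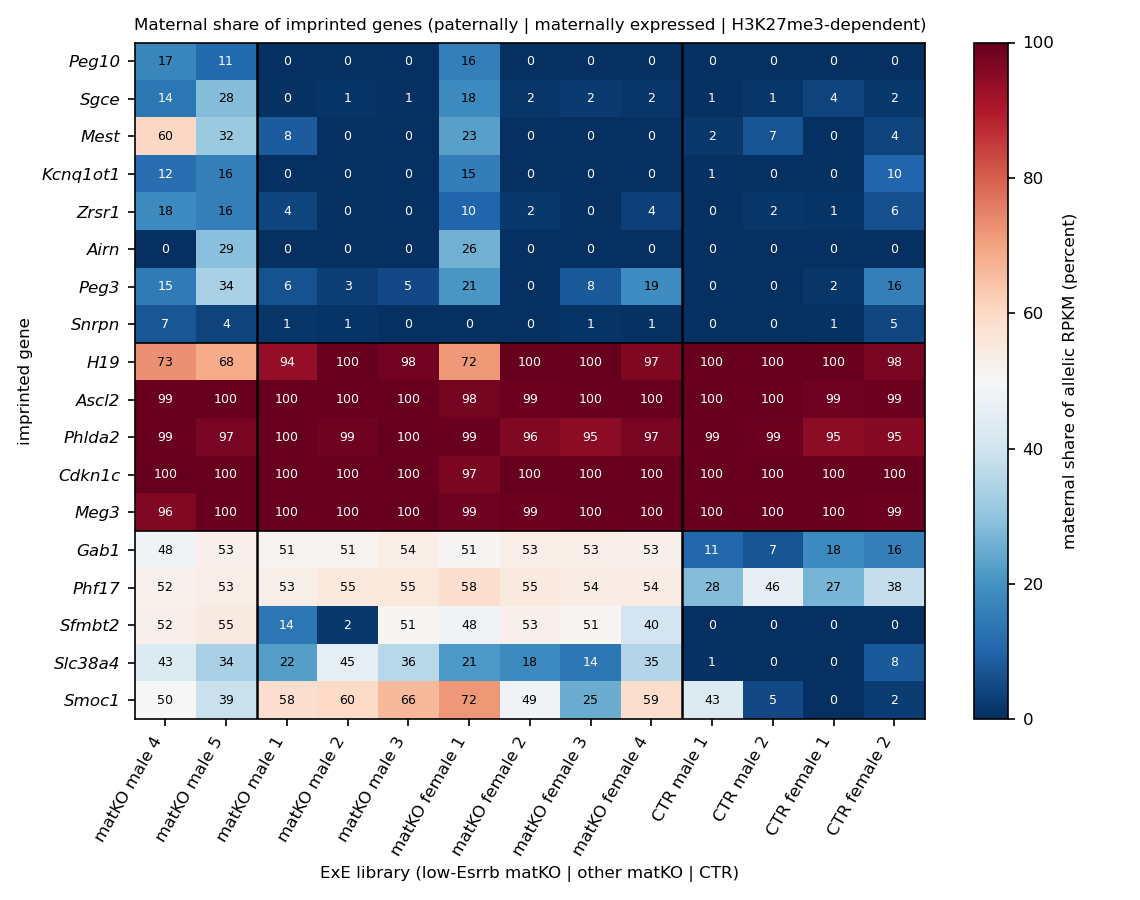
Maternal share of allelic RPKM, in percent, of 18 imprinted genes (rows) in the 13 ExE libraries (columns), with the 2 low-Esrrb libraries at the left, then the other matKO libraries and the controls. Peg10, Sgce, Mest and H19 differ from the remaining matKO libraries in male 4, male 5 and female 1, while Gab1 is near 50 percent in every matKO library and at 6.7 to 18.3 percent in controls.

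Because both low-Esrrb libraries are male, they enter the labelled comparison of matKO with control males. With limma on log2(RPKM + 1) in all 13 libraries, 4 of 9915 genes passed an adjusted p of 0.05 in males (0.0403%), 3 higher and 1 lower, and 1456 had an unadjusted p under 0.05. Thg1l, a tRNA-modifying enzyme, was higher in matKO males by 1.51 ± 0.12 (SE, limma adjusted p 1.9e-04), at 63.4 and 69.6 RPKM in the low-Esrrb pair and 77.0 to 86.0 RPKM in the other matKO males, against 23.6 to 27.7 RPKM in control males. Gab1, an adaptor protein and one of the 5 imprinted genes, was higher by 1.21 ± 0.12 (SE, limma adjusted p 0.00118), at 62.1 and 55.4 RPKM in the pair and 48.0 to 58.3 RPKM in the other matKO males, against 22.8 to 23.8 RPKM in control males. Plaur, the urokinase receptor, was higher and Pigp, an enzyme of GPI anchor synthesis, was lower. Plaur in the pair lay inside the range of the other matKO males, both low-Esrrb libraries lay below it for Thg1l, and male 4 lay outside it for Gab1 and Pigp, at 58.5 RPKM of Pigp against at least 66.6 RPKM.

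Without the low-Esrrb libraries 3 genes passed in males: Thg1l, Gab1 and Wdfy1, the last lower by 1.15 with a limma adjusted p of 0.00717. Wdfy1 had an adjusted p of 0.348 with them. Plaur and Pigp each had an adjusted p of 0.0501 without them. Hand1 differed by 1.76 ± 0.70 (SE) with the low-Esrrb libraries and by 0.80 ± 0.36 without them, with limma adjusted p of 0.292 and 0.383. In females, where no library was low in Esrrb, 2 genes passed (0.0202%), Thg1l and Gab1, and 452 had an unadjusted p under 0.05. The low-Esrrb libraries still entered this test, because all groups shared an estimate of the spread. Without them 3 genes passed in females, and 890 had an unadjusted p under 0.05 by limma. Both control males had Ppia over 30 RPKM, and with the Ppia level as a term 4 genes passed in males and 1 in females. Plaur and Pigp were not among them, with limma adjusted p of 0.0788 and 0.263. Over 18 alternatives Plaur passed in 11 and Pigp in 7. Without control male 1 only Thg1l passed in males, and 2 genes did without control male 2 or without matKO male 1. In females 1 gene passed without matKO female 2, female 3 or female 4.

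The authors' deposited table of genes changed in males lists 196 genes as higher and 204 as lower, with a log2 ratio of at least 1 in size. Their ratio was rebuilt within 0.001 for 399 of the 400 from the mean RPKM of each group plus 0.1, using all 5 matKO males. Recomputed without the low-Esrrb pair, 57 of the 196 higher genes (29.1%) and 72 of the 203 lower genes found (35.5%) still had a ratio of that size, and 384 of 399 kept their direction. The genes had been listed by a ratio that included the pair, so part of this loss follows from that choice. No other pair of males was left out for comparison. Hand1 had a log2 ratio of 2.27 in the authors' deposited table, and 0.90 without the pair, Krt7 had 1.74 there and 0.65 without it, and Fasl 4.92 and 3.02. Gab1, at 1.25 in the authors' deposited table and 1.19 without the pair, and Thg1l, at 1.55 and 1.66, kept a ratio of that size without it.

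**Figure D5:**
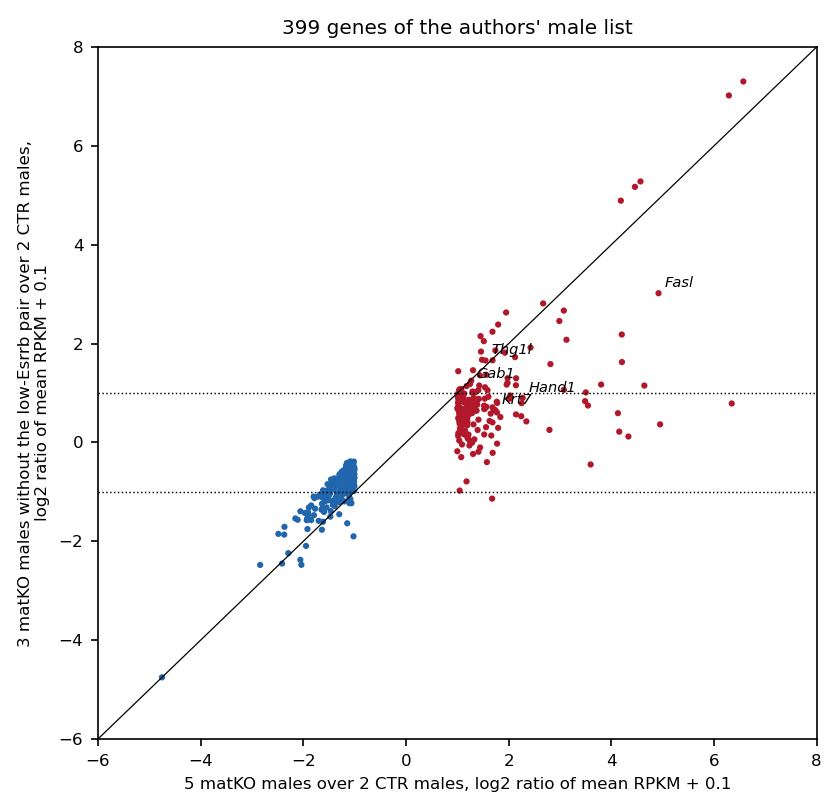
Log2 ratio of mean RPKM plus 0.1 of matKO over control males for 399 genes of the authors' deposited table, with all 5 matKO males (horizontal axis) and with the 3 males outside the low-Esrrb pair (vertical axis); dotted lines mark a ratio of 1 in size and red and blue points are genes listed as higher and lower. Most points lie between the dotted lines, while Gab1 and Thg1l stay above the upper one.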

How the data were processed

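RNA-seq libraries were made from lysed ExE by cDNA amplification for small inputs followed by tagmentation, per the labels' protocols, and this chemistry does not mark strand. RPKM values, total and for each parental allele, were deposited by the authors as tables. HISAT2 2.1.0, Cufflinks 2.2.1 and the mm9 build are named in the submitters' processing notes, with no role given. Allelic read counts deposited by the authors were used only as a mean over all 13 ExE libraries, to keep genes with at least 20 allelic reads. Only 3 of 13 of those count columns matched best the allelic RPKM of their own library, against 13 of 13 for allelic RPKM against total RPKM, so 13 columns of reads were not used singly. Log2 ratios of the authors' deposited table of genes changed in males were copied as given. Morula and CUT&RUN samples were not analysed here. Read depth is unknown for RPKM, so no counting intervals are given.

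Low-Esrrb libraries were compared with other matKO libraries on log2(RPKM + 1) without a test, because Esrrb in those libraries chose them. The understated fold of low genes on that scale applies throughout. Tests were made with limma 3.58.1 in R 4.3.3, with an intensity trend and Benjamini-Hochberg adjustment at 0.05, on log2(RPKM + 1) for matKO against control within each sex and on the log2 allelic ratio. Figures and tables used Python 3.11.15 with pandas 2.3.3. The procedures were tested on simulated data. Promoter windows came from RefSeq (GRCm38.p6), matched by symbol, and 111 of the 153 higher and 242 of the 346 lower genes had one.

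The libraries and all gene lists were chosen with earlier results of these data known. Genes were named by rule: Eed and the 5 markers, up to 12 genes each way with the largest differences and at least 5 RPKM in the higher group, up to 5 counted members of each list each way and 2 not counted, up to 10 genes called in each test, the PRC2 subunits and the H3K27me3-dependent imprints. Named outside that rule, after their values were seen, were Afp, Apoa4, Ttr, Cdkn1c, Cdx2, Eomes, Etv4, Etv5, Gata3, Gcm1, Krt8, Mki67, Plac1, Pou5f1, Ppia, Prl3d1, Tpbpa, Sox21, Xist, Zfp42 and Tmem181b-ps. The imprinted genes described by allelic share, and the division of libraries by Ppia, were also chosen after values were seen. Some genes that this rule would name are not reported here.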

Additional observations from a re-analysis of the deposited data

Results flagged for a closer look

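In 238 groups of 4 or 5 matKO libraries of one sex, 26 single values lay far from the rest of their group. For independent, normally distributed values chance gives about 5 percent of groups. RPKM near the floor and shares near their limits are not of that kind, so this rate does not apply to the 238 groups. They fell in female 1 (10), male 5 (6), female 2 (5), male 4 (3) and male 2 (2).

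In the low-Esrrb pair, male 5 stood apart from the other males in visceral endoderm genes, with 121 RPKM of Spink3, 62.9 RPKM of Apom, 14.1 RPKM of Ttr, 13.6 RPKM of Apoa4 and 1.80 RPKM of Afp, and with a maternal share of 29.2% at Airn. Male 4 stood apart with 37.7 RPKM of Dmkn and 324 RPKM of H19, and with a maternal share of 33.1% at Snurf. Male 2 stood apart by 0.0299 RPKM of Tpbpa, where the other males were at 0, and by a maternal share of 99.8% at Cdkn1c, where they were at 100%.

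Female 1 stood apart from the other females at imprinted genes, with maternal shares of 15.9% at Peg10, 18.2% at Sgce, 23.0% at Mest, 15.4% at Kcnq1ot1, 26.1% at Airn, 71.6% at H19 and 97.2% at Cdkn1c. It also had 14.3 RPKM of Spink3, 12.1 RPKM of Xist and 12.1 RPKM of Ppia. Female 2 stood apart with 65.1 RPKM of Rhox9, 125 RPKM of Rhox6, 8.79 RPKM of Wdfy1, 0.0503 RPKM of Prl3d1 and a maternal share of 23.4% at Igf2.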

How the results depend on the processing

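The 153 higher and 346 lower genes became 93 and 189 with a filter at a mean of 5 RPKM, 444 and 709 with a fold of 1.5 in place of 2, 14 and 71 with a fold of 4, and 470 and 574 within the libraries over 30 RPKM of Ppia, where 1 library stands on each side. Higher genes were 45.0% of those counted there, 16.5% at a fold of 4 and 30.7% as reported. Leaving out 1 library gave 139 to 284 higher and 308 to 504 lower genes. Of the differences of single named genes, 1873 under an alternative moved by less than 1 SD of the other matKO libraries, 302 moved by more, and none of the counted ones changed sign. The calls in males numbered 15 without a filter, 1 with the Ppia level as a term and without the low-Esrrb pair, and 1 to 6 with a library left out. Gab1 passed in 15 of 18 alternatives in males, not without control male 1, and in 10 of 17 in females. Thg1l passed in all 18 alternatives in males. In females the calls numbered 12 without a filter, 5 with females only in the fit, 1 with the Ppia level as a term, 5 with that term and without the low-Esrrb pair, and 1 to 3 with a library left out. The 4 allelic calls became 2 at 50 reads or more, 19 without the sex term, 0 in males only (820 genes with an unadjusted p under 0.05 by limma), 0 with the Ppia level as a term (897 genes), and 0 to 44 with a library left out. Wdfy1 had adjusted p between 0.00403 and 0.433 over 17 alternatives. The cause of these shifts was not tested. For libraries of the same replicate number, correlations of deviations from group means ran from -0.04 to 0.06 between matKO and control. They ran from -0.19 to 0.26 between male and female matKO, the highest at number 4. With 2 controls per sex the control deviations are exact opposites, and the low-Esrrb pair enter the male matKO means. Pairing by replicate number can therefore be neither shown nor excluded. A fit with the replicate block gave 1 call in males, 1 in females and 2 in the allelic test, which were not among the 4 genes named, each of which had a limma adjusted p of 0.433 there. The Ppia alternatives were chosen after seeing the data.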
